A study of Mus musculus with 6 samples.

Results

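The collagen gene family was examined in RNA sequencing of mouse bone marrow mesenchymal stromal cells, with members taken as every gene of the deposited table whose symbol has the form Col, a number, a and a number. This gave 44 collagen genes among 55401 genes. They comprise 11 fibrillar collagens, 6 basement membrane collagens, 9 fibril-associated collagens with interrupted triple helices (FACIT), 6 collagens of beaded filaments and 12 others. The groups were Nlrp3 knockout cells exposed to LPS (3 libraries) and wild-type (WT) cells exposed to LPS (3 libraries), both labelled with the C57/B6J strain. All cells were flushed from the femur and grown in serum-containing medium. Lipopolysaccharide (LPS), a component of the bacterial outer membrane, was given at 3 µg/mL for 24 h. Nlrp3 encodes an inflammasome sensor. No unstimulated culture was analysed here, so the comparison is of genotypes under LPS. The labels leave out the mice's age and sex, the form of the knockout allele, and whether replicates were separate mice or cultures. The spread that the p-values measure may therefore be technical. The title of each library names its replicate number as a day, whereas another label gives the first day for all.

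Collagens are trimers of chains that wind into a triple helix. Fibrillar collagens assemble into the banded fibrils that carry tension, FACIT collagens sit on fibril surfaces, type IV collagen forms the sheet-like network of basement membranes, and type VI collagen forms beaded microfibrils close to cells. Stromal cells and fibroblasts are main producers of type I, III, V and VI collagen, whereas type II collagen is known for its abundance in cartilage.

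Levels are FPKM, fragments scaled by transcript length and by library depth, as the authors deposited them, so levels of different genes are compared per length. Fold changes are differences in mean log2(FPKM + 1), knockout minus WT, and this added 1 makes the change of a low gene look smaller than it is. They were tested with limma, with Benjamini-Hochberg adjustment over all tested genes and a threshold of 0.05. A gene was tested if it reached an FPKM of 1 in at least 3 of the 6 libraries.

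The libraries held 53.2 to 66.3 M estimated counts, or about 13.3 to 16.6 M fragments. Nlrp3 stood at 0 FPKM in each of the 3 knockout libraries and at 2.76, 1.68 and 1.86 FPKM in WT replicates 1, 2 and 3, as the genotype given for each library would have it. Over all 12136 tested genes, 10.4% were called higher, 9.2% were called lower and 19.6% were called in either direction (limma). The median log2 fold change of all tested genes was 0.01. Among 14 stromal markers, Lepr, a marker of marrow stromal cells, did not exceed 0.10 FPKM in any library and Fap did not exceed 0.09 FPKM. Of 12 tested stromal markers 8 fell and 3 rose (66.7% and 25%, beside 9.2% and 10.4% over all tested genes), so the list split. The 3 called markers with the largest absolute fold change, given next, all fell and do not stand for those that rose. The surface marker Thy1 stood at 11.8 ± 1.2 FPKM in knockout and 134 ± 6.2 FPKM in WT libraries (SD, n = 3 each), and the growth factor receptor Pdgfra at 2.96 ± 0.23 FPKM in knockout and 30.2 ± 1.7 FPKM in WT libraries, and Ly6a, the surface antigen Sca-1, at 46.1 ± 5.9 FPKM in knockout and 188 ± 70.9 FPKM in WT libraries.

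Collagen transcripts were abundant in both genotypes and lower in sum in the knockout cells. The 44 genes summed to 3244, 3621 and 3508 FPKM in knockout replicates 1, 2 and 3, and to 4266, 4647 and 4281 FPKM in WT replicates 1, 2 and 3. Each knockout sum was below each WT sum, and the knockout mean was 21.4% lower. Collagens took 3.32 ± 0.18% of all estimated counts in knockout and 4.12 ± 0.19% in WT libraries (SD, n = 3 each). Col1a1, Col1a2 and Col3a1 together made up 61.8 ± 1.18% of the collagen FPKM in knockout and 65.8 ± 0.71% in WT libraries, and without these 3 genes the sum was 12.3% lower in the knockout cells.

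Of the 44 collagens 20 were tested and 24 were below the filter. Of the 20, 11 fell, 4 rose and 5 did not pass, which is 55% called lower and 20% called higher, beside 9.2% and 10.4% over all tested genes. The median log2 fold change of the 20 was -0.39. Col2a1 and Col27a1 passed the filter through the knockout libraries alone, where they were higher, so their place among the tested genes was set by that difference. The other 18 had an FPKM of at least 1 in all 6 libraries; 11 of them fell, 2 rose and 5 did not pass, with a median log2 fold change of -0.42. Among these 18, each knockout library lay below each WT library for 11, those that fell, and above for 2, those that rose. For Col2a1 and Col27a1 such separation was fixed by the filter and is no further evidence. Over all tested genes, called or not, separation was found for 18.8% above, 18% below and 36.7% in either direction. Without WT replicate 2 or without knockout replicate 1, 7 collagens were called lower in place of 11, and without any one knockout replicate 2 were called higher in place of 4, because Col2a1 and Col27a1 then left the tested set. The shares of the family called thus moved with single libraries, while the sign of the fold change did not change for any of the 20 in any alternative fit in which the gene was tested.

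Markers of other cells moved in the same libraries. All 23 tested macrophage markers of 25 on the list rose (100%, beside 10.4% over all tested genes). None of the 25 was at 0 in all libraries. The 25 summed to 1781 to 2038 FPKM in knockout and 767 to 872 FPKM in WT libraries. All 7 tested myofibroblast and smooth muscle markers of 10 rose (100%), while edgeR tested 9 of the 10 and called 7 higher and 1 lower. The 10 summed to 3263 to 3862 FPKM in knockout and 1722 to 1925 FPKM in WT libraries. Acta2, smooth muscle actin, averaged 2338 ± 218 FPKM in knockout and 1156 ± 70.4 FPKM in WT libraries (SD, n = 3 each), Actg2 444 ± 17.7 FPKM in knockout and 194 ± 32.4 FPKM in WT libraries, and Lmod1 27.4 ± 0.44 FPKM in knockout and 14.3 ± 0.99 FPKM in WT libraries. The macrophage receptors Marco, Clec4d and Adgre1 averaged 47.2, 43.6 and 134 FPKM in knockout and 10.2, 12.1 and 44.0 FPKM in WT libraries. None of 8 endothelial markers passed the filter, and their sum was 0.16 to 0.22 FPKM in knockout and 0.73 to 0.93 FPKM in WT libraries. Of 6 epithelial markers only Krt19 was tested, and it fell to 4.97 FPKM in knockout against 12.3 FPKM in WT libraries. The part of these shifts in the collagen results was not tested, and in such bulk samples fewer cells of a type and less RNA per cell cannot be told apart.

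**Figure D1:**
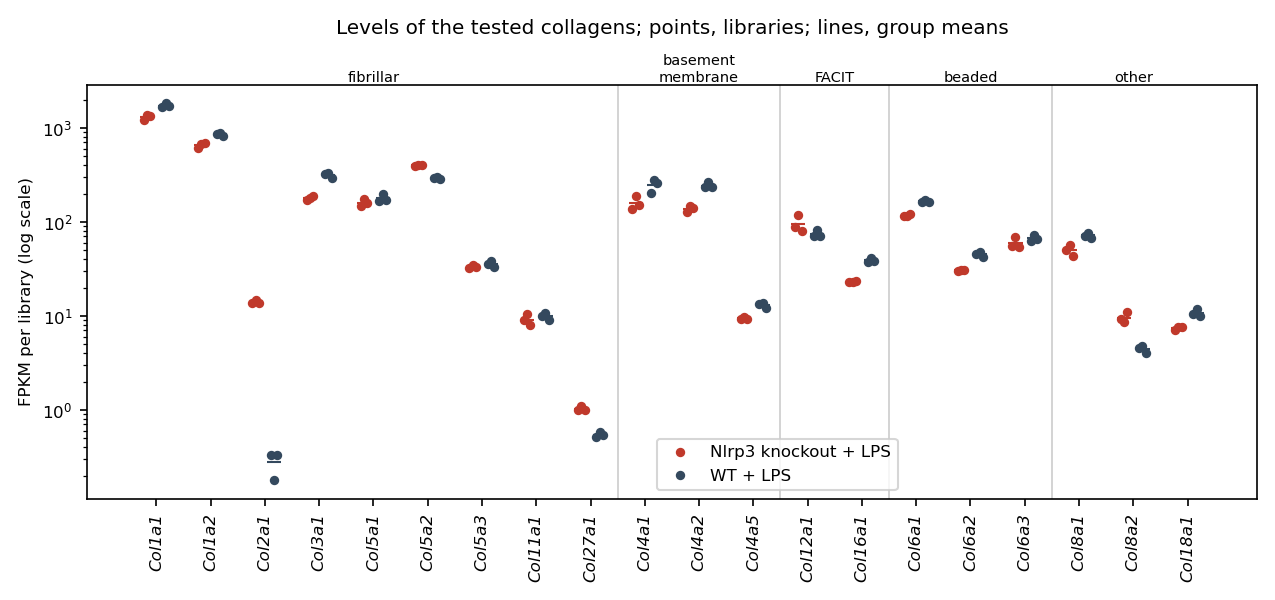
FPKM of the 20 tested collagens on a log scale, grouped by class; each point is a library, red for knockout with LPS on the left and dark blue for WT with LPS on the right, and lines are group means of 3 libraries. Col1a1 and Col1a2 lead in both genotypes, and Col2a1 shows the widest separation, with 13.6 to 14.7 FPKM in knockout and 0.18 to 0.33 FPKM in WT libraries.

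Promoter windows are shown for collagens whose chains or neighbours moved apart or together, so that they can be read beside the values below. RefSeq windows on GRCm38.p6 were found for 35 of the 44 genes (38 windows). Col5a2, Col1a1 and Col2a1 were among the genes without one, so Col3a1 and Col5a1 are shown without Col5a2. The 250 bases before the RefSeq start are given 5′ to 3′ on the gene's strand, with capitals marking 3 motifs searched on both strands. These are the TATA box (TATAAA, read as TTTATA on the other strand), the CCAAT box (CCAAT, read as ATTGG on the other strand) and the GC box (GGGCGG, read as CCGCCC on the other strand). Col3a1 (chr1:45311288-45311537, plus strand) fell, Col5a1 (chr2:27886175-27886424, plus strand) did not pass, Col8a1 (chr16:57754738-57754987, minus strand) fell and Col8a2 (chr4:126286544-126286793, plus strand) rose.
Col3a1: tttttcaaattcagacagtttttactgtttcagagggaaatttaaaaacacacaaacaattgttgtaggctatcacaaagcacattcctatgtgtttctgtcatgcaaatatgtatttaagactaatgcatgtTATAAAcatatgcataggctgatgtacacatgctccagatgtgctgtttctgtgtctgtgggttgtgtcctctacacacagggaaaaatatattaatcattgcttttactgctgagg
Col5a1: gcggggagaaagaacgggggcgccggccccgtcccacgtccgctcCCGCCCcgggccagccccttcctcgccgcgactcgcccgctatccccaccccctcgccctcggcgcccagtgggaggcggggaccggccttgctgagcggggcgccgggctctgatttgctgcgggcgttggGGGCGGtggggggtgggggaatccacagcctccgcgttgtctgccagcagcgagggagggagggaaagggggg
Col8a1: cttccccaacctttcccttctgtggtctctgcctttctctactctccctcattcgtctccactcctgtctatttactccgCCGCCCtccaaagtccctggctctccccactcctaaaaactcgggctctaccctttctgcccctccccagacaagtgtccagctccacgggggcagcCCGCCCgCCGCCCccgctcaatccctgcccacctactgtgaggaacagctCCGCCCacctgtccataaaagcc
Col8a2: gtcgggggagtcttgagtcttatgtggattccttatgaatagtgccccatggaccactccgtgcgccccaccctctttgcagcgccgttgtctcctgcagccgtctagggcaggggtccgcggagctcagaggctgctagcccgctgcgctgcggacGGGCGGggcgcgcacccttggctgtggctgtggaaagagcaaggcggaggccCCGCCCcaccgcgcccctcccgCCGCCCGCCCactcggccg
The Col3a1 window had a GC content of 35.2% and no GC box. Its 1 TATA box match lay 117 to 112 bases before the RefSeq start. The windows of Col8a1 and Col8a2, which moved in opposite directions, had a GC content of 60.8% and 70%. They held 4 GC boxes each, 2 of those of Col8a2 overlapping. The Col5a1 window had a GC content of 76.4% and 2 such matches. Over all 32851 windows of this length 32.7% held a GC box, 33.8% a CCAAT box and 12.4% a TATA box. Among the 38 collagen windows 22, 13 and 5 did (57.9%, 34.2% and 13.2%). The median GC content was 59% in the collagen windows and 52.4% in all windows. Its part in the GC box share was not tested. These matches are letters in a window and not sites of binding.

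Type I collagen, the main fibrillar collagen of bone, skin and tendon, was lower in the knockout cells, by about the same proportion for both of its chains. Col1a1 (GRCm38 chromosome 11, 94936224 to 94953042, plus strand) had 1214, 1353 and 1335 FPKM in knockout replicates 1, 2 and 3 and 1656, 1822 and 1698 FPKM in WT replicates 1, 2 and 3. Col1a2 (chromosome 6, 4504814 to 4541544, plus strand) had 607, 673 and 692 FPKM in knockout and 861, 879 and 823 FPKM in WT libraries. No knockout library reached the lowest WT library for either gene. The log2 fold changes were -0.41 ± 0.11 (SE, limma adjusted p = 0.0451) and -0.38 ± 0.10 (adjusted p = 0.0366). Both calls were close to the threshold: of the 6 fits with 1 library left out, only that without knockout replicate 3 called either gene, with adjusted p-values up to 0.196 and 0.159. Without a filter on low values neither was called (adjusted p = 0.263 and 0.144, limma), while edgeR's quasi-likelihood test on the estimated counts called both (adjusted p = 0.0121 and 0.0177). The ratio of Col1a1 to Col1a2 FPKM was 1.98 ± 0.044 in knockout and 2.02 ± 0.083 in WT libraries (SD, n = 3 each), and its values overlapped.

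Col3a1, which forms the homotrimeric type III collagen of distensible tissues, fell further, and its neighbour Col5a2 rose. Col3a1 (chromosome 1, 45311538 to 45349706, plus strand) had 172, 179 and 189 FPKM in the knockout and 324, 327 and 290.4 FPKM in the WT libraries, a log2 fold change of -0.80 ± 0.08 (SE, adjusted p = 0.000929). Col5a2 (chromosome 1, 45374321 to 45503282, minus strand) had 394, 404 and 405 FPKM in the knockout and 292, 303 and 289 FPKM in the WT libraries, a log2 fold change of 0.44 ± 0.07 (adjusted p = 0.00631). The groups did not overlap for either gene, although their 3′ ends lie 24.6 kb apart and their fold changes have opposite signs. Col5a2 thus stood above Col3a1 in each knockout library, with a ratio of Col3a1 to Col5a2 of 0.45 ± 0.015, whereas in WT libraries the ratio was 1.06 ± 0.054 (SD, n = 3 each). A same-strand row inside Col3a1, Gm47302, a miRNA gene in the GENCODE annotation, had 315 ± 38.6 FPKM in knockout and 528 ± 49.7 FPKM in WT libraries and also fell (adjusted p = 0.00714), so the values of both are uncertain where fragments were shared.

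The other chains of type V collagen, which nucleates and limits the width of type I fibrils, did not move with Col5a2. Col5a1 had 146, 176 and 159 FPKM in knockout and 167, 197 and 170.1 FPKM in WT libraries (log2 fold change -0.15, 95% confidence interval -0.40 to 0.10). Col5a3 had 32.5, 34.9 and 32.8 FPKM in knockout and 35.3, 38.2 and 33.2 FPKM in WT libraries (-0.09, interval -0.26 to 0.09). The ranges of the genotypes overlapped for both, and neither passed (adjusted p = 0.380 and 0.488, limma). The ratio of Col5a1 to Col5a2 was 0.40 ± 0.033 in knockout and 0.60 ± 0.039 in WT libraries, without overlap. Col11a1, a chain of the related type XI collagen, had 8.99, 10.4 and 8.01 FPKM in knockout and 9.89, 10.7 and 9.02 FPKM in WT libraries and did not pass (adjusted p = 0.570, limma).

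Col2a1, the chain of type II collagen, had the largest fold change among the 20 tested collagens. Col2a1 (ENSMUSG00000022483, chromosome 15, 97975602 to 98004695, minus strand) had 13.6, 14.66 and 13.85 FPKM in knockout replicates 1, 2 and 3, from 8866, 8745 and 8401 estimated counts. In WT replicates 1, 2 and 3 it had 0.33, 0.18 and 0.33 FPKM, from 197, 124 and 183 estimated counts. The knockout mean was 50.1 times the WT mean, with a log2 fold change of 3.56 ± 0.08 (SE, limma adjusted p = 3.18e-06) on the log2(FPKM + 1) scale and 5.62 in edgeR. Among the 44 collagens it ranked 15 by mean FPKM in knockout and 26 in WT libraries. Col2a1 passed the filter of the main test through the knockout libraries alone. That every knockout library lay above every WT library was therefore set by the filter. The adjusted p in edgeR was 1.53e-05.

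Type IX collagen and most chondrocyte markers stayed below the filter. The type IX collagen genes Col9a1, Col9a2 and Col9a3, whose products decorate type II fibrils, did not reach 1 FPKM, with Col9a1 and Col9a2 at no more than 0.03 FPKM and Col9a3 at 0.21, 0.26 and 0.07 FPKM in knockout and 0.22, 0.10 and 0.18 FPKM in WT libraries. Col11a2, also of cartilage fibrils, had 0.38 ± 0.09 FPKM in knockout and 0.39 ± 0.10 FPKM in WT libraries (SD, n = 3 each), and Col10a1, of hypertrophic cartilage, 0.24 ± 0.072 FPKM in knockout and 0.17 ± 0.059 FPKM in WT libraries. Of 14 chondrocyte markers 13 were below the filter, at most 0.28 FPKM in any knockout library, and Acan, Snorc, Cnmd and Epyc were listed at 0 in all 6 libraries. Sox9, the transcription factor that drives Col2a1 in cartilage, fell to 0.92, 0.94 and 1.21 FPKM in knockout libraries, against 2.40, 2.87 and 2.94 FPKM in WT libraries (log2 fold change -0.88, adjusted p = 0.00135, limma). Acan encodes aggrecan, the main cartilage proteoglycan.

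Markers of other skeletal lineages split. Of tested tendon markers 33.3% rose and 16.7% fell, and of tested osteoblast markers 66.7% rose and 33.3% fell. Over all tested genes 10.4% were called higher and 9.2% lower. Of 6 tested tendon markers 2 rose and 1 fell: Scx, a tendon transcription factor, averaged 7.89 FPKM in knockout and 2.01 FPKM in WT libraries, the proteoglycan Fmod 3.28 FPKM in knockout and 1.86 FPKM in WT libraries, and the tendon membrane protein Tnmd 0.20 FPKM in knockout and 28.6 FPKM in WT libraries. Of 3 tested osteoblast markers, Alpl (1.42 FPKM in knockout, 0.13 FPKM in WT) and Runx2 (5.69 FPKM in knockout, 3.29 FPKM in WT) rose, and Spp1 fell (775 FPKM in knockout, 1784 FPKM in WT). Alpl passed the filter through the knockout libraries alone and Tnmd through the WT libraries alone. The part of these marker shifts in the Col2a1 result was not tested.

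Col27a1, a fibrillar collagen found in cartilage, also rose at a low level. It had 1.01, 1.09 and 1.00 FPKM in knockout and 0.51, 0.58 and 0.54 FPKM in WT libraries, a log2 fold change of 0.40 ± 0.08 (adjusted p = 0.0131, limma) and 0.90 in edgeR (adjusted p = 0.00167). It stood just inside the filter and was no longer tested under TMM scaling, but without a filter it was also called (adjusted p = 0.0259, limma). Without WT replicate 1 or 3 it did not pass (adjusted p = 0.0671 and 0.0583, limma). Col24a1, the remaining fibrillar gene, did not exceed 0.16 FPKM in any library.

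Basement membrane collagen was lower in the knockout cells. All 3 tested genes of type IV collagen fell (100%, beside 9.2% over all tested genes), with a median log2 fold change of -0.63. Their class summed to 306 ± 35.1 FPKM in knockout and 504 ± 53.7 FPKM in WT libraries (SD, n = 3 each), 39.2% less in knockout. Col4a2 (chromosome 8, 11312805 to 11449287, plus strand) had 127, 146 and 139.6 FPKM in knockout and 232, 265 and 233 FPKM in WT libraries (log2 fold change -0.81 ± 0.09, adjusted p = 0.00122). Col4a1 (chromosome 8, 11198423 to 11312826, minus strand) had 138, 188 and 151 FPKM in knockout and 204, 279 and 258 FPKM in WT libraries (-0.63 ± 0.16, adjusted p = 0.0361). The highest knockout library of Col4a1, at 188 FPKM, was close to the lowest WT library, at 204 FPKM, and it was not called without knockout replicate 1 or 3 or WT replicate 2 or 3, with adjusted p-values up to 0.126; without a filter on low values it was not called (0.0772, limma).

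The chains encoded by Col4a1 and Col4a2 form the common type IV trimer, and their genes lie head to head. In the deposited table the 2 rows start on opposite strands and share 22 bases (chr8:11312805-11312826, plus strand), which are shown because they are the start of both genes. Motifs are not capitalized in this stretch, which holds the GC box letters GGGCGG.
Col4a1 and Col4a2: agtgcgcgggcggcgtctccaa
The ratio of Col4a1 to Col4a2 was 1.15 ± 0.12 in knockout and 1.01 ± 0.12 in WT libraries (SD, n = 3 each), and its values overlapped. Col4a5, a chain of the trimers of kidney and of smooth muscle basement membranes, had 9.31, 9.71 and 9.22 FPKM in knockout and 13.4, 13.8 and 12.1 FPKM in WT libraries (-0.43 ± 0.07, adjusted p = 0.00651). Col4a6, its neighbour 1.31 kb away on the opposite strand, was below the filter with 0.27, 0.33 and 0.21 FPKM in knockout and 0.66, 0.75 and 0.53 FPKM in WT libraries, and edgeR called it lower (adjusted p = 0.00857). Col4a3 and Col4a4, also head to head and known from the glomerulus, did not exceed 0.10 FPKM.

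**Figure D2:**
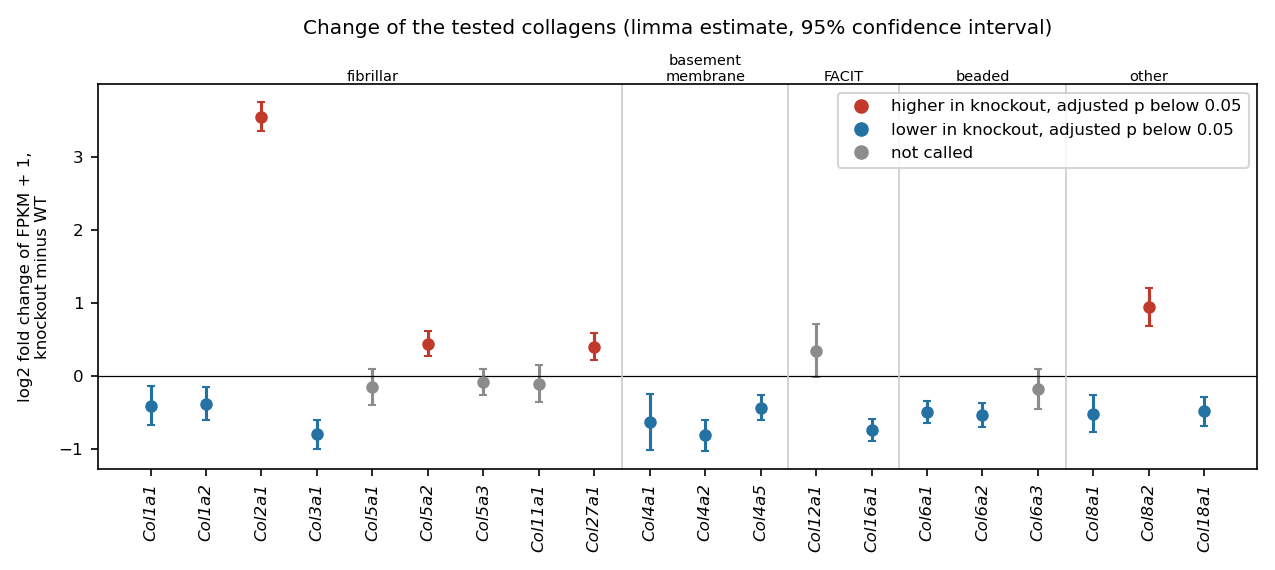
Knockout minus WT log2 fold change of FPKM + 1 for the 20 tested collagens, grouped by class; points are limma estimates, bars are 95% confidence intervals, red marks genes called higher, blue genes called lower and grey genes that did not pass. The 3 type IV genes and Col6a1 and Col6a2 lie below 0, while Col2a1, at 3.56, Col8a2, at 0.95, Col5a2 and Col27a1 lie above it.

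Of 3 tested genes of type VI collagen 2 fell (66.7%, beside 9.2% over all tested genes). Col6a1 (chromosome 10, minus strand) had 115, 115 and 120.4 FPKM in knockout and 164, 170.2 and 162 FPKM in WT libraries (log2 fold change -0.50 ± 0.06, adjusted p = 0.00229). Col6a2, 85.2 kb away on the same strand, had 29.95, 30.8 and 31.1 FPKM in knockout and 45.6, 47.6 and 41.9 FPKM in WT libraries (-0.54 ± 0.07, adjusted p = 0.00214). Both were called in all 6 fits with 1 library left out, and their ratio was 3.81 ± 0.062 in knockout and 3.68 ± 0.16 in WT libraries, with overlap.

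Col6a3, the long chain that completes the trimer, did not pass. It had 55.5, 69.5 and 54.0 FPKM in knockout and 62.6, 73.2 and 66.5 FPKM in WT libraries (-0.18, interval -0.46 to 0.10, adjusted p = 0.348, limma), so the knockout replicate 2 lay above WT replicates 1 and 3. Without knockout replicate 2 the log2 fold change of Col6a3 was -0.29 (adjusted p = 0.0852, limma). The ratio of Col6a3 to Col6a2 was 1.95 ± 0.27 in knockout and 1.499 ± 0.11 in WT libraries, without overlap. Whether the changes of these genes differ was not tested. Col6a4, which encodes an alternative long chain in the mouse, was below the filter with 0.03, 0.02 and 0 FPKM in knockout, from 17, 14 and 0 estimated counts, and 0.60, 0.55 and 0.46 FPKM in WT libraries, from 334, 343 and 233 estimated counts. edgeR called it lower (log2 fold change -4.91, adjusted p = 0.0036). Col6a5 and Col6a6 did not exceed 0.02 FPKM.

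Among the FACIT collagens Col16a1 fell and Col12a1 did not pass. Col16a1, of type XVI collagen, had 22.7, 22.9 and 23.3 FPKM in knockout and 37.6, 41.3 and 38.4 FPKM in WT libraries (log2 fold change -0.74 ± 0.06, adjusted p = 0.000390), and it was called in all 6 fits with 1 library left out. Col12a1, which encodes the chain of type XII collagen on type I fibrils, had 87.8, 118 and 80.5 FPKM in knockout and 70.65, 81.69 and 69.96 FPKM in WT libraries (0.34 ± 0.15, interval -0.02 to 0.71, adjusted p = 0.180, limma). The knockout replicate 3, at 80.5 FPKM, lay below WT replicate 2, at 81.69 FPKM. The class summed to 119 ± 19.8 FPKM in knockout and 114 ± 8.5 FPKM in WT libraries.

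Col14a1, of type XIV collagen, was below the filter at 0.48, 0.54 and 0.40 FPKM in knockout and 0.93, 0.99 and 0.92 FPKM in WT libraries, just under the level of 1 required in 3 libraries. edgeR called it lower (log2 fold change -1.01, adjusted p = 0.00425). Antisense rows overlap it, Gm18787 (0.57 FPKM in knockout, 3.15 FPKM in WT) and Gm49257 (0.09 FPKM in knockout, 1.41 FPKM in WT), each of which reached 1 FPKM only in WT libraries. The library preparation marked strand, but the strand setting of the counting is not known here, so the Col14a1 value is uncertain. Col19a1, Col20a1 and Col22a1 did not exceed 0.16 FPKM.

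The chains of type VIII collagen, a short-chain collagen of hexagonal networks beneath endothelia, moved in opposite directions. Col8a1 had 49.9, 56.1 and 43.65 FPKM in knockout and 71.5, 76.5 and 67.0 FPKM in WT libraries (log2 fold change -0.52 ± 0.11, adjusted p = 0.016). Col8a2 had 9.28, 8.55 and 10.99 FPKM in knockout and 4.60, 4.79 and 4.07 FPKM in WT libraries (0.95 ± 0.11, adjusted p = 0.00127), 2.14 times the WT mean. No library of one genotype reached the range of the other for either gene. The ratio of Col8a1 to Col8a2 was 5.38, 6.56 and 3.97 in knockout and 15.5, 15.96 and 16.5 in WT libraries. Col8a2 was called in all 6 fits with 1 library left out and Col8a1 was not called without knockout replicate 1 or WT replicate 1 or 2, with adjusted p-values up to 0.0631.

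**Figure D3:**
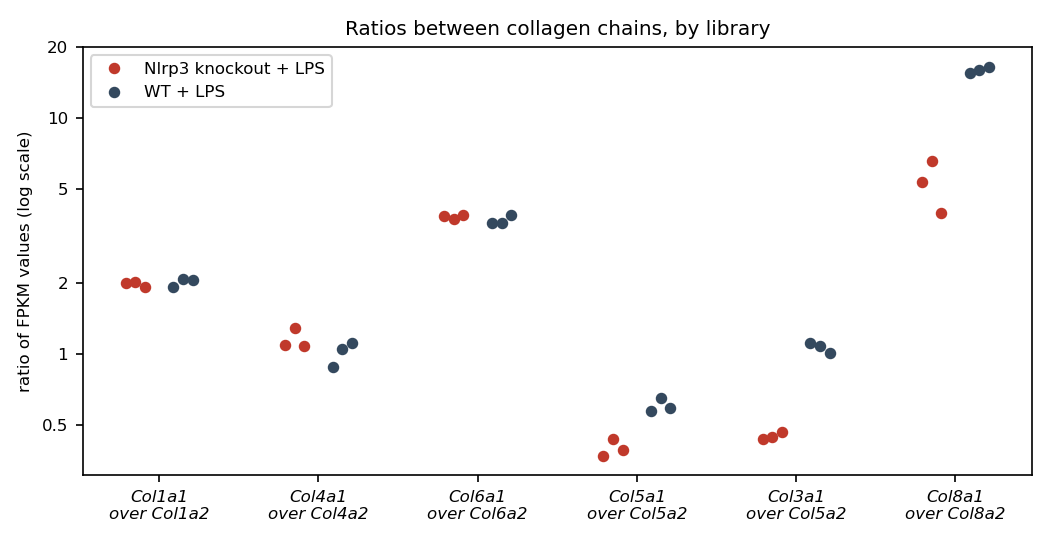
Ratio of FPKM values between collagen chains on a log scale, 1 point per library, red for knockout with LPS on the left and dark blue for WT with LPS on the right. The ratios Col1a1 over Col1a2, Col4a1 over Col4a2 and Col6a1 over Col6a2 overlap between genotypes. Col5a1 over Col5a2, Col3a1 over Col5a2 and Col8a1 over Col8a2 are lower in every knockout library. For Col3a1 over Col5a2 and Col8a1 over Col8a2 this follows from the separation of the single genes in opposite directions.

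Of the multiplexins, basement membrane collagens that carry glycosaminoglycans, Col18a1 fell and Col15a1 was nearly undetected in the knockout cells. Col18a1, whose product releases endostatin, had 7.04, 7.53 and 7.65 FPKM in knockout and 10.6, 11.85 and 9.93 FPKM in WT libraries (log2 fold change -0.49 ± 0.08, adjusted p = 0.0075). Col15a1 was below the filter at 0.02, 0.03 and 0.03 FPKM in knockout, from 10, 12 and 12 estimated counts, and 0.45, 0.56 and 0.45 FPKM in WT libraries, from 186, 260 and 168 estimated counts. At about 4 estimated counts per fragment, the knockout libraries together held about 8.5 fragments of Col15a1 and the WT libraries about 154. edgeR called it lower (log2 fold change -4.19, adjusted p = 8.79e-05).

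Among the collagens grouped as others, edgeR also called 2 further low genes lower. Col7a1, the collagen of anchoring fibrils beneath the epidermis, had 0.43, 0.52 and 0.41 FPKM in knockout and 0.81, 0.90 and 0.81 FPKM in WT libraries (adjusted p = 0.00491, edgeR). Col28a1, which encodes the type XXVIII collagen chain, had 0, 4 and 0 estimated counts in knockout libraries, about 1 fragment in all, and 35, 52 and 27 in WT libraries (adjusted p = 0.0204, edgeR).

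In all, edgeR tested 35 of the 44 collagens and called 17 lower and 4 higher. Over all genes it tested, 8.12% were called lower, 8.48% higher and 16.6% in either direction. Of the 24 collagens below the filter of the main test it tested 15, called 6 lower and none higher, and left 9 uncalled, none above 0.48 FPKM in any library. The remaining 9 did not exceed 0.03 FPKM. Col13a1, a transmembrane collagen, was listed at 0 in all 6 libraries. The other transmembrane collagens, Col17a1, Col23a1 and Col25a1, did not exceed 0.13 FPKM, and Col26a1 did not exceed 0.01 FPKM. DESeq2 called 18 collagens lower and 4 higher, beside 7.96% and 8.61% of all genes it tested. The additional one was Col6a6, with 30 estimated counts in all in WT libraries, about 7.5 fragments, and 0 in knockout libraries. edgeR and DESeq2 took the estimated counts as they stand, at about 4 per fragment. Their calls of low collagens therefore rest on fewer fragments than the counts show. limma without a filter called 14 lower and 4 higher, beside 4.48% lower, 5.06% higher and 9.54% in either direction over all genes.

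**Figure D4:**
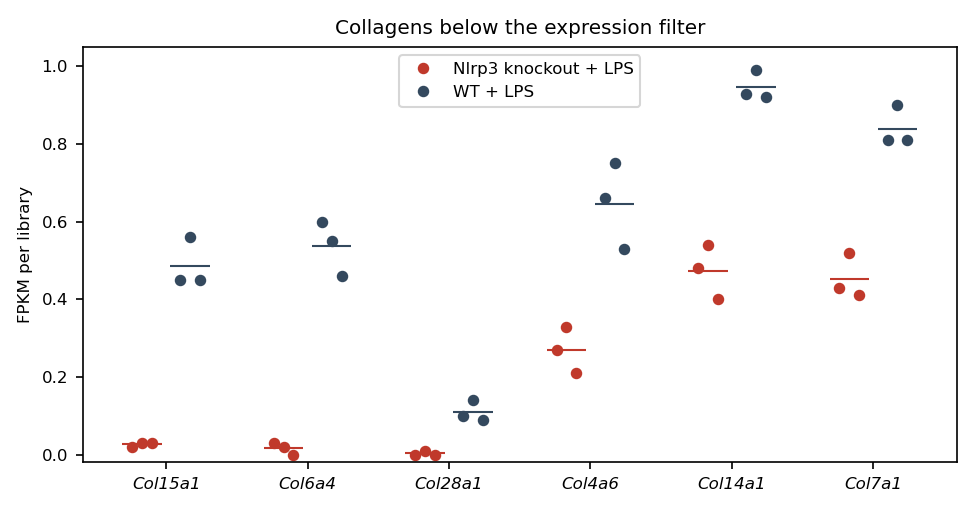
FPKM of the 6 collagens below the expression filter that edgeR called lower; points are libraries, red for knockout with LPS on the left and dark blue for WT with LPS on the right, and lines are means of 3 libraries. All knockout values of Col15a1, Col6a4 and Col28a1 are at or below 0.03 FPKM, while the WT values of Col15a1 and Col6a4 lie between 0.45 and 0.60 FPKM.

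Genes that fold, export, process, bind or degrade collagen were followed in 5 lists with 72 genes. Of 61 tested, 15 rose and 13 fell (24.6% and 21.3%, beside 10.4% and 9.2% over all tested genes), with a median log2 fold change of 0.05. Pcolce2, which rose, and Tll1, which fell, are counted here although each passed the filter only through the genotype in which it was higher. Without knockout replicate 1, 9 rose.

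Of 22 tested genes of folding and modification in the endoplasmic reticulum, 6 rose and 5 fell. These shares are 27.3% and 22.7%, beside 10.4% and 9.2% over all tested genes. Hspa5, the general chaperone BiP, averaged 442.8 ± 15 FPKM in knockout and 226 ± 3.5 FPKM in WT libraries (SD, n = 3 each; log2 fold change 0.97, adjusted p = 0.000246, limma). Plod2, the lysyl hydroxylase that acts on telopeptides and sets the type of cross-link, averaged 35.5 ± 3.9 FPKM in knockout and 20.03 ± 1.3 FPKM in WT libraries (0.79, adjusted p = 0.00185, limma). Among those that fell, Sparc, a collagen-binding matricellular protein, averaged 987 ± 79.6 FPKM in knockout and 1779 ± 82.4 FPKM in WT libraries (-0.85), the prolyl 3-hydroxylase P3h3 27.3 ± 3.9 FPKM in knockout and 44.7 ± 1.4 FPKM in WT libraries (-0.70), and P4ha2, a catalytic subunit of prolyl 4-hydroxylase, 42.1 ± 2.4 FPKM in knockout and 60.6 ± 0.51 FPKM in WT libraries (-0.52). Of 10 genes of procollagen export 1 rose (10%, beside 10.4% over all tested genes). This was Creb3l1, a transcription factor of the secretory pathway, at 129 ± 7.3 FPKM in knockout against 96.3 ± 9.6 FPKM in WT libraries (adjusted p = 0.0242, limma); it did not pass without knockout replicate 1 or 2 or WT replicate 1 or 3.

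Of 12 tested genes of procollagen processing and cross-linking 6 fell and 3 rose (50% and 25%, beside 9.2% and 10.4% over all tested genes). Within the lysyl oxidase family, which starts the cross-links of collagen, Loxl3 fell to 32.8 ± 0.60 FPKM in knockout against 94.2 ± 3.9 FPKM in WT libraries (SD, n = 3 each; log2 fold change -1.49, adjusted p = 2.4e-05, limma) and Loxl1 to 80.7 ± 6.9 FPKM in knockout against 140.3 ± 6.3 FPKM in WT libraries (-0.79). Loxl2 rose to 132 ± 1.2 FPKM in knockout against 76.4 ± 6.0 FPKM in WT libraries (0.79, adjusted p = 0.000725, limma). Pcolce2, an enhancer of the procollagen C-proteinase, averaged 3.94 FPKM in knockout and 0.44 FPKM in WT libraries, and Tll1, a proteinase of the BMP1 family, 0.56 FPKM in knockout and 2.13 FPKM in WT libraries; each passed the filter only through the genotype in which it was higher.

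Of 6 tested receptors and uptake genes 2 rose and 1 fell (33.3% and 16.7%, beside 10.4% and 9.2% over all tested genes). Itga11, the integrin chain that binds fibrillar collagen on fibroblasts, averaged 68.8 ± 5.0 FPKM in knockout and 54.2 ± 3.4 FPKM in WT libraries (SD, n = 3 each; adjusted p = 0.0306, limma), and was not called without knockout replicate 1 or 2 or WT replicate 1 or 3. Mrc2, the endocytic receptor for collagen fragments, averaged 49.4 ± 3.3 FPKM in knockout and 79.9 ± 3.2 FPKM in WT libraries (-0.68, adjusted p = 0.00111, limma), and Cd36, a scavenger receptor also expressed by macrophages, 5.30 FPKM in knockout and 2.30 FPKM in WT libraries.

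Of 11 genes of collagen breakdown 3 rose and 1 fell (27.3% and 9.1%, beside 10.4% and 9.2% over all tested genes). The interstitial collagenases Mmp13 and Mmp8 averaged 34.0 and 3.36 FPKM in knockout and 10.1 and 0.91 FPKM in WT libraries, and the gelatinase Mmp2 165 ± 6.1 FPKM in knockout and 113 ± 4.4 FPKM in WT libraries (SD, n = 3 each). The gelatinase Mmp9 fell to 9.15 ± 0.49 FPKM in knockout against 139 ± 6.8 FPKM in WT libraries. Macrophages also make Mmp9, and the macrophage list rose in these libraries; the part of this in the breakdown list was not tested. The membrane collagenase Mmp14 and cathepsin K, Ctsk, were among the 7 that did not pass.

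**Figure D5:**
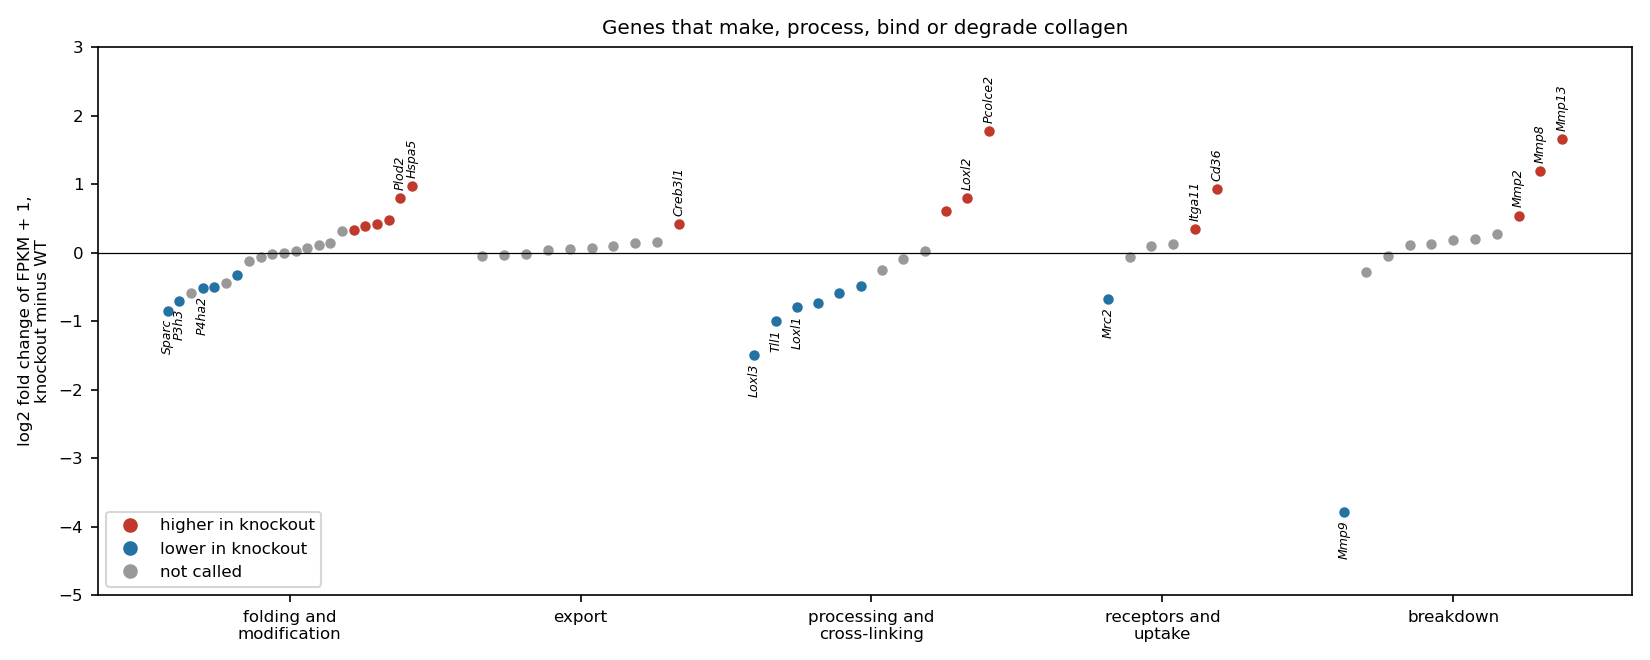
Knockout minus WT log2 fold change of FPKM + 1 for the 61 tested genes of 5 collagen-handling lists, 1 point per gene, ordered within each list; red marks genes called higher, blue genes called lower and grey genes that did not pass, and up to 5 called genes per list are named. Calls in both directions occur in each list other than export, where Creb3l1 is the only call.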

How the data were processed

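Polyadenylated RNA was sequenced in 3 libraries of Nlrp3 knockout and 3 of WT cells under LPS. Per the submitters' processing notes, cutadapt 1.9, HISAT2 2.0.4, StringTie 1.3.4d and GRCm38 were used; the sources used here name no counting step, annotation release or strand setting. The authors deposited FPKM to 2 decimals and, per the file headers, counts. The deposited counts are estimated counts: over 5837 genes they were proportional to FPKM within 1% in 100% of comparisons, and 44.4% of counts up to 16 were multiples of 4 against 25% if even, from which about 4 counts per fragment were inferred. limma 3.58.1 (R 4.3.3) was run on log2(FPKM + 1) for genes that reached 1 FPKM in 3 or more libraries, with group as the only term, an intensity trend, two-sided tests and Benjamini-Hochberg adjustment at 0.05. It was kept as the main test because the counts are estimates; edgeR 4.0.16 and DESeq2 1.42.0 on the estimated counts were alternatives, beside a pseudocount of 0.1, no filter, a filter at 5 FPKM, TMM scaling, the replicate number as a block and leaving out each library. The limma and edgeR code was first run on simulated counts of simpler form, which does not show how well the fits suit these data. An exact two-sided permutation test of Nlrp3 gave p = 0.1, the smallest that 3 against 3 libraries allow. Named genes are all collagens, the up to 5 called genes of largest change per collagen-handling list and the up to 3 per marker list; Lepr, Fap, Serpinh1, Ppib, Mmp14, Ctsk, members listed at 0 and overlapping genes were added after their values were seen. The collagens and the lists were chosen with earlier results of these data known. Promoter windows come from RefSeq, GRCm38.p6.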

Additional observations from a re-analysis of the deposited data

How the results depend on the processing

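No fold change of the 20 tested collagens changed sign under any alternative. Of 138 values from alternatives other than leaving out a library, 135 stayed on the same side of the threshold and 3 no longer passed, those of Col1a1, Col1a2 and Col4a1 without a filter. Of 114 values with 1 library left out, 95 stayed on the same side and 19 no longer passed. The counts of collagens were 11 lower and 4 higher; edgeR called 17 and DESeq2 18 lower, and both called 4 higher, as both test more low genes. With 1 library left out, 7 to 10 collagens were lower and 2 to 4 higher; the 2 higher without any one knockout replicate reflect that Col2a1 and Col27a1 then left the tested set. Of all genes, 1264 were higher and 1117 lower; 817 were higher with a filter at 5 FPKM, where fewer genes were tested, and 1680 lower in DESeq2. With 1 library left out 705 to 1464 were higher and 583 to 1281 lower. Collagen-handling genes that rose numbered 15, and 9 to 14 with 1 library left out; those that fell numbered 13, and 11 to 13. The log2 ratio of summed collagen FPKM, knockout over WT, was -0.35, -0.38 to -0.30 with 1 library left out, and -0.19 without Col1a1, Col1a2 and Col3a1. With the replicate number as a block, 4 collagens were higher and 11 lower, as without it. Single values moved in both directions. For Col4a1 the block gave an SE of 0.07 in place of 0.16 and an adjusted p of 0.00987 in place of 0.0361 (limma). For Col1a2 and Col27a1 the adjusted p rose to 0.0496 and 0.0435 (limma). The deviations of same-numbered libraries correlated at 0.02, 0.17 and 0.10, and not every library correlated best with its own number. The libraries were not treated as paired, and the labels do not settle whether they were. Low collagens are limited by depth: values under 0.1 FPKM rest on a few fragments per library.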

Other observations

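Serpinh1, which encodes the collagen-specific chaperone HSP47, varied within both genotypes. It had 388, 921 and 449 FPKM in knockout replicates 1, 2 and 3 and 1101, 1071 and 473 FPKM in WT replicates 1, 2 and 3, so that libraries of each genotype stood at a high and a low level. The log2 fold change was -0.60 ± 0.44 (SE) and did not pass (adjusted p = 0.414, limma). Ppib, its partner in the endoplasmic reticulum and a member of the prolyl 3-hydroxylation complex, varied less, with 113, 96.3 and 117 FPKM in knockout and 103, 90.3 and 108 FPKM in WT libraries.

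Nt5dc1, whose gene spans all of Col10a1 on the opposite strand, averaged 2.41 FPKM in knockout and 1.93 FPKM in WT libraries, above Col10a1 at 0.24 FPKM in knockout and 0.17 FPKM in WT libraries; it did not pass (adjusted p = 0.278, limma).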
